A study of Mus musculus with 12 samples.

Results

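The genes described here are 10 secreted matrix proteins other than collagens, namely Dcn, Lum, Bgn, Fn1, Tnc, Postn, Fbn1, Eln, Sparc and Thbs1, 10 of the 25117 gene symbols measured. They were chosen by name, as the glycoproteins and proteoglycans of the fibroblast matrix. All 10 were found in the table, and 9 of them passed the filter for testing. RNA came from mouse embryonic fibroblasts (MEFs) with the genotype Rbbp5 (flox/flox); Rosa26 CRE (+/+), which all 12 libraries share. Rbbp5 encodes a core subunit of the complexes that methylate histone H3 at lysine 4, a mark of active promoters. Cells given tamoxifen for 7 days are the RBBP5 KO groups and cells without tamoxifen the wildtype groups. For the last 16 hours the medium was either full DMEM, with serum, or EBSS (Earle's balanced salts), which holds neither amino acids nor serum. The 4 groups had 3 libraries each. Every wildtype library carried the floxed alleles and the Cre locus, and none had tamoxifen, so an effect of tamoxifen or of active Cre and an effect of losing RBBP5 cannot be told apart. The labels do not say whether replicates came from separate embryos or cultures, so the p-values measure only the spread between these libraries.

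Fibroblasts build the matrix that surrounds them. Fibronectin (Fn1) is laid down as fibrils that cells grip through integrins, and collagens and microfibrils assemble upon it. Small leucine-rich proteoglycans such as decorin (Dcn), lumican (Lum) and biglycan (Bgn) bind collagen and set the width of its fibrils. Fibrillin-1 (Fbn1) forms microfibrils, on which elastin (Eln) is deposited in elastic tissues. Tenascin-C (Tnc), periostin (Postn), SPARC (Sparc) and thrombospondin-1 (Thbs1) are matricellular proteins, which modulate adhesion and growth factor activity more than they bear load.

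Values are in TPM, a unit of transcript abundance that corrects for transcript length and for the total of a library, so levels of different genes can be compared. Read depth is unknown, because TPM keeps none. Tests used limma on log2(TPM + 1) over the 12653 genes that reached 1 TPM in 3 or more libraries, and every adjusted p is from limma with Benjamini-Hochberg adjustment over those genes, called at 0.05. Rbbp5 itself was at 26.2, 25.7 and 26.2 TPM in wildtype and at 7.47, 9.34 and 8.31 TPM in KO in full medium. In EBSS it was at 12.4, 14.0 and 11.8 TPM in the libraries labelled wildtype and at 31.9, 24.6 and 23.0 TPM in those labelled KO. As deposited, Rbbp5 thus went against the labels in EBSS (labelled KO higher by 0.99 on the log2 scale, limma adjusted p = 3.2e-05). With median-of-ratios scaling the labelled groups did not pass (0.08, limma adjusted p = 0.56). Neither scaling shows the loss of Rbbp5 that the KO label states, and the EBSS groups are called "labelled" throughout. Libraries labelled wildtype, EBSS also stood apart, with 31.7% to 34.2% of their TPM in cytosolic ribosomal protein genes, against 14.7% to 18.5% in the other 9. The tested gene in the middle of the range lay at 10.1 to 10.5 TPM there and at 17.5 to 23.0 TPM in the others, so most genes read lower there as deposited. The change of the median gene in those libraries was −0.94 on the log2 scale against wildtype in full medium and −0.73 against KO in full medium, and it was 0.91 for labelled KO against labelled wildtype in EBSS. The shift was −0.17 for KO against wildtype in full medium. Median-of-ratios scaling, which takes out such a shift, is given beside the results it alters. In bulk RNA, fewer cells of a type and less RNA per cell cannot be told apart.

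Of 10 fibroblast markers, 7 to 9 had a group mean of at least 1 TPM in every group, led by Vim and S100a4, while the group mean of Fap was under 1 TPM in all groups and that of Thy1 in 3 of 4. The 10 summed to 6625 to 6751 TPM in wildtype and 5682 to 5897 TPM in KO in full medium, and to 4255 to 5215 TPM in labelled wildtype and 4091 to 6686 TPM in labelled KO in EBSS. In full medium Vim and S100a4 had means of 2840 and 1911 TPM in wildtype and 3090 and 2001 TPM in KO. Every other marker of the 10 had a lower mean in KO there. Col1a1 was at 265 against 1051 TPM, Prrx1 at 16.7 against 86.7 TPM, Twist1 at 44.1 against 91.6 TPM and Pdgfra at 0.238 against 10.6 TPM. The 6 endothelial markers summed to 3.29 to 10.6 TPM, and the 6 epithelial markers to 2.86 to 11.2 TPM. The 6 macrophage markers summed to 17.0 to 17.3 TPM in wildtype and 60.8 to 65.4 TPM in KO in full medium, most of it Cd68, a lysosomal protein. Adgre1 was listed at 0 in every wildtype library in full medium and at 0.178 to 0.209 TPM in KO. The other markers of this list also had higher means in fed KO than in fed wildtype. Lyz2 was at 3.32 against 0.318 TPM, Itgam at 0.456 against 0.0229 TPM, Ptprc at 0.287 against 0.0193 TPM and Csf1r at 0.690 against 0.518 TPM. In labelled wildtype, EBSS the macrophage markers summed to 17.8 to 77.0 TPM and in labelled KO, EBSS to 17.3 to 21.0 TPM. Cd68 was at 14.8 to 20.4 TPM in labelled wildtype, EBSS and Lyz2 at 2.22 to 48.4 TPM. Adgre1 was there at 0.135 to 3.38 TPM, Csf1r at 0.256 to 2.84 TPM, Itgam at 0.135 to 1.28 TPM and Ptprc at 0.0135 to 0.734 TPM. The 5 smooth muscle markers, mostly Acta2 and Tagln, summed to 2618 to 2775 TPM in wildtype and 1611 to 1637 TPM in KO in full medium, and 503 to 644 TPM in labelled wildtype and 1221 to 2722 TPM in labelled KO in EBSS. The 6 cartilage and bone markers summed to 13.5 to 36.4 TPM. The part of these markers in the results below was not tested.

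For 5 of the 10 genes RefSeq gave a promoter on GRCm38.p6 (Bgn, Fbn1, Tnc, Postn and Sparc). The 250 bases before the transcription start are shown, 5′ to 3′ on the gene's strand. Capitals mark matches on either strand to TATAAA (the letters of the TATA box) or GGGCGG (the GC box bound by SP1 factors). Where RefSeq gave 2 starts, the start nearest to GENCODE's is shown. The windows are chr4:64047016-64047265 (minus strand) for Tnc, chr2:125506439-125506688 (minus) for Fbn1, chr3:54360857-54361106 (plus) for Postn, chrX:73483351-73483600 (plus) for Bgn and chr11:55420081-55420330 (minus) for Sparc.
Tnc: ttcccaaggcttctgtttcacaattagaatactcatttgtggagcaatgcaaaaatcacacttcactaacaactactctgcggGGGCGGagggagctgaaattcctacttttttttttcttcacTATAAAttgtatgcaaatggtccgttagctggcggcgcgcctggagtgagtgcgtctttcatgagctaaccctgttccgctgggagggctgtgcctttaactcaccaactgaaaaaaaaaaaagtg
Fbn1: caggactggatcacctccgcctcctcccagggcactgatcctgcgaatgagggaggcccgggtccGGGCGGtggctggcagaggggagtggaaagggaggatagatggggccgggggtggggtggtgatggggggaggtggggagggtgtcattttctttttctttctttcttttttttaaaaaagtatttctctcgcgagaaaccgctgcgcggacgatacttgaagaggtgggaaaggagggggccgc
Postn: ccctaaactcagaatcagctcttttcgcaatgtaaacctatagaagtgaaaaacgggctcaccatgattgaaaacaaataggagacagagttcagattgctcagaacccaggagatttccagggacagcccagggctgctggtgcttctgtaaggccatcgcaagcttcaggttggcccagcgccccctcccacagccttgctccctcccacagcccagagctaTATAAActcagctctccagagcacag
Bgn: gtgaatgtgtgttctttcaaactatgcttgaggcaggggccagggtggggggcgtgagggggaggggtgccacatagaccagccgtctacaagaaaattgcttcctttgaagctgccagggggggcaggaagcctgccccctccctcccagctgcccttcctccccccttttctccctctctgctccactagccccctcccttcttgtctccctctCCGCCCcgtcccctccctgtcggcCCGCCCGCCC
Sparc: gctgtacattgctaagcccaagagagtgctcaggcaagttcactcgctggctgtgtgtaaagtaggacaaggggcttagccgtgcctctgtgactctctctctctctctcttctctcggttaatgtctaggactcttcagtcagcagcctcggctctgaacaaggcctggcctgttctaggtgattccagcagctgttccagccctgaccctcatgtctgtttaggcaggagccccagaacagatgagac

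These 5 windows had little in common. The letters TATAAA begin 26 bases before the start in Postn and 126 bases before it in Tnc, and 12.4% of all 32851 promoter windows of this length hold them. These are matches of letters, and whether either serves as a TATA box was not tested. The window of the other RefSeq start of Tnc, which is not shown, holds TATATAAG near its end. The search for TATAAA does not match those letters. A GC box was found in Tnc and Fbn1, and 3 in Bgn, of which the 2 nearest the start overlap, and 32.7% of all windows hold at least 1. The letters TGANTCA (AP-1; in 6.75% of all windows) and GGAATG (TEAD; in 12.6%) were in none of the 5. CpG dinucleotides numbered 8 in Tnc, 13 in Fbn1, 4 in Postn, 7 in Bgn and 4 in Sparc, against a median of 6 over all windows. The Fbn1 start lies 53 bases from the nearest start in GENCODE vM21.

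In fed wildtype cells, Fn1, Sparc and Bgn were the most abundant members, and together made up 72.6% to 74.1% of the members' summed TPM. Means were 1888 ± 60.6 TPM for Fn1, 1782 ± 85.6 TPM for Sparc and 1589 ± 91.2 TPM for Bgn (mean ± SD, n = 3), and the library ranges of neighbours in this order overlapped. Thbs1, Tnc, Dcn, Fbn1, Postn, Lum and Eln followed in that order, each with a range separate from the next. All 10 summed to 6979 to 7426 TPM in wildtype and 2887 to 3798 TPM in KO in full medium. In EBSS the sum was 1631 to 1795 TPM in labelled wildtype and 4709, 7222 and 7246 TPM in labelled KO. Labelled KO libraries 2 and 3 in EBSS therefore lay in the range of fed wildtype, and library 1 below it.

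**Figure D1:**
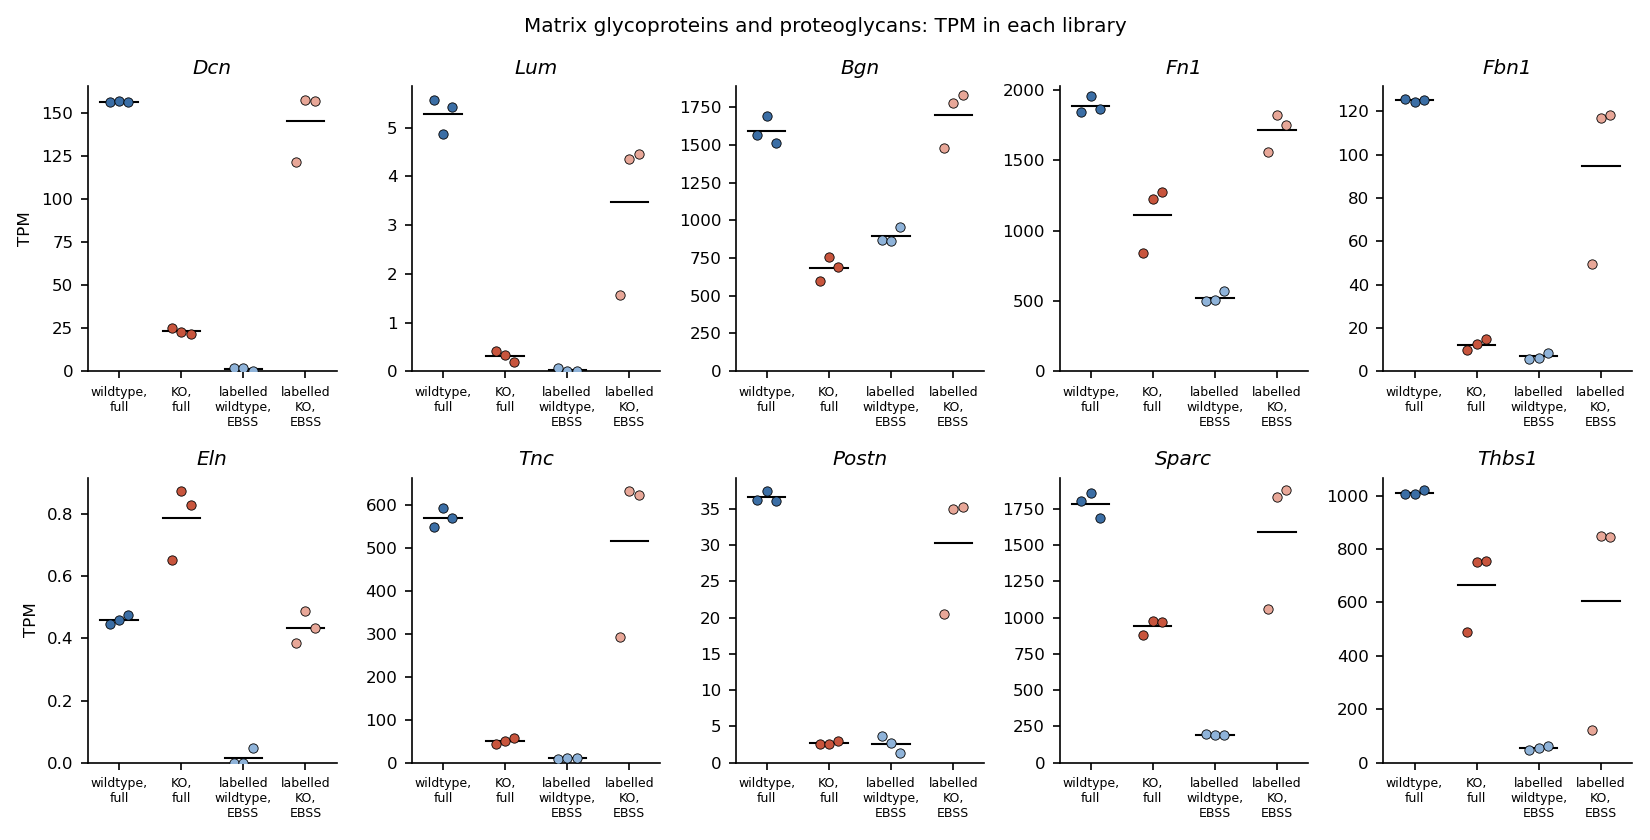
TPM of each member in each of the 12 libraries, 1 panel a gene with its own axis from 0; points are libraries and bars are the means of 3. Dcn, Lum, Fbn1, Tnc and Postn are near the bottom of their axes in KO in full medium and in labelled wildtype, EBSS, and labelled KO, EBSS replicate 1 is the lowest of its group for all 10.

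The first comparison asks how the matrix RNAs differed between KO and wildtype in full medium. In KO cells 8 of the 9 tested members fell and none rose, against 35.8% of all tested genes that fell and 20.1% that rose. Fibrillin-1, tenascin-C, periostin and lumican were left at 5.90% to 9.80% of their wildtype means, and decorin at 14.9%. Biglycan, SPARC and fibronectin, the most abundant of the set, kept 43.0%, 52.8% and 59.0%. With median-of-ratios scaling the same number fell, 8 of 9, against 27% of all genes lower and 26.7% higher. The median change of the 9 was −2.26 on the log2(TPM + 1) scale, against −0.17 for all genes. Lum entered the test only through the groups where it was high, and without it 7 of 8 fell, with a median of −1.96.

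Among the small leucine-rich proteoglycans, Dcn lies on chromosome 10 from 97479609 to 97518143 (ENSMUSG00000019929.16, coordinates from GENCODE vM21 on GRCm38). Dcn RNA was at 156, 157 and 156 TPM in fed wildtype and at 25.2, 22.8 and 21.9 TPM in fed KO. The KO libraries were all far below the wildtype ones, and the change was −2.70 (SE 0.26, adjusted p = 6.5e-06). Lum, its neighbour on the same strand, begins 47.0 kb beyond the end of Dcn (97565128 to 97572703). It was much scarcer, at 5.58, 4.86 and 5.43 TPM in wildtype and 0.417, 0.326 and 0.195 TPM in KO, with no overlap. Its change was −2.26 (SE 0.24, adjusted p = 1.7e-05), a scale on which the fall of so low a gene is understated. Bgn, on chromosome X from 73483602 to 73495933, was at 1564, 1690 and 1513 TPM in wildtype and 597, 758 and 693 TPM in KO. Its groups also did not overlap, and it fell by 1.22 (SE 0.11, adjusted p = 3.5e-06).

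Fn1 (chromosome 1, 71585520 to 71653200), the adhesive glycoprotein, was at 1842, 1957 and 1865 TPM in wildtype and at 839, 1226 and 1274 TPM in KO. KO replicate 1 was the lowest, and the groups did not overlap. Fn1 fell by 0.79 (SE 0.14, adjusted p = 0.00061), one of the smallest changes of the set.

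Of the elastic fibre genes, Fbn1 (chromosome 2, 125300594 to 125507993) was at 126, 124 and 125 TPM in wildtype and 9.57, 12.5 and 14.7 TPM in KO. It fell by 3.27 (SE 0.29, adjusted p = 4e-06), and the groups were far apart. Eln (chromosome 5, 134702593 to 134747323) was barely detected, at 0.445, 0.460 and 0.476 TPM in wildtype and 0.654, 0.874 and 0.830 TPM in KO. It was the only member whose KO libraries were all above the wildtype ones. Eln did not reach the filter of 1 TPM in any library, and with no filter its change was 0.29 (SE 0.05, limma adjusted p = 0.0012).

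Tnc, a matricellular glycoprotein made in wounds and in development (chromosome 4, 63959785 to 64047015), was at 548, 592 and 569 TPM in wildtype and 43.7, 49.7 and 57.8 TPM in KO. It fell by 3.48 (SE 0.25, adjusted p = 8.5e-07). Postn (chromosome 3, 54361109 to 54391037), which binds collagen and integrins, was at 36.1, 37.5 and 36.0 TPM in wildtype and 2.54, 2.60 and 2.97 TPM in KO, and fell by 3.35 (SE 0.25, adjusted p = 1.2e-06). For both genes the lowest wildtype library was many times the highest KO library. Sparc (chromosome 11, 55394500 to 55423183), a collagen-binding protein, was at 1801, 1857 and 1689 TPM in wildtype and 881, 973 and 971 TPM in KO. It fell by 0.92 (SE 0.17, adjusted p = 0.00097).

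Thbs1, which activates latent TGF-beta and is quickly induced by serum, was the one tested member that did not pass (chromosome 2, 118111876 to 118127133). It was at 1005, 1006 and 1019 TPM in wildtype and 488, 753 and 756 TPM in KO. The KO libraries were all below the wildtype ones, yet the change was −0.63 (SE 0.58, adjusted p = 0.38). The fit shares 1 spread over 12 libraries, and Thbs1 was at 121, 849 and 845 TPM in labelled KO, EBSS. Without replicate 1 of that group, or with the 6 libraries of the comparison alone, Thbs1 passed (limma adjusted p = 0.0063 and 0.0054). Counted by overlap alone, all 9 tested members were lower in every KO library, as were 49.7% of all tested genes.

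**Figure D2:**
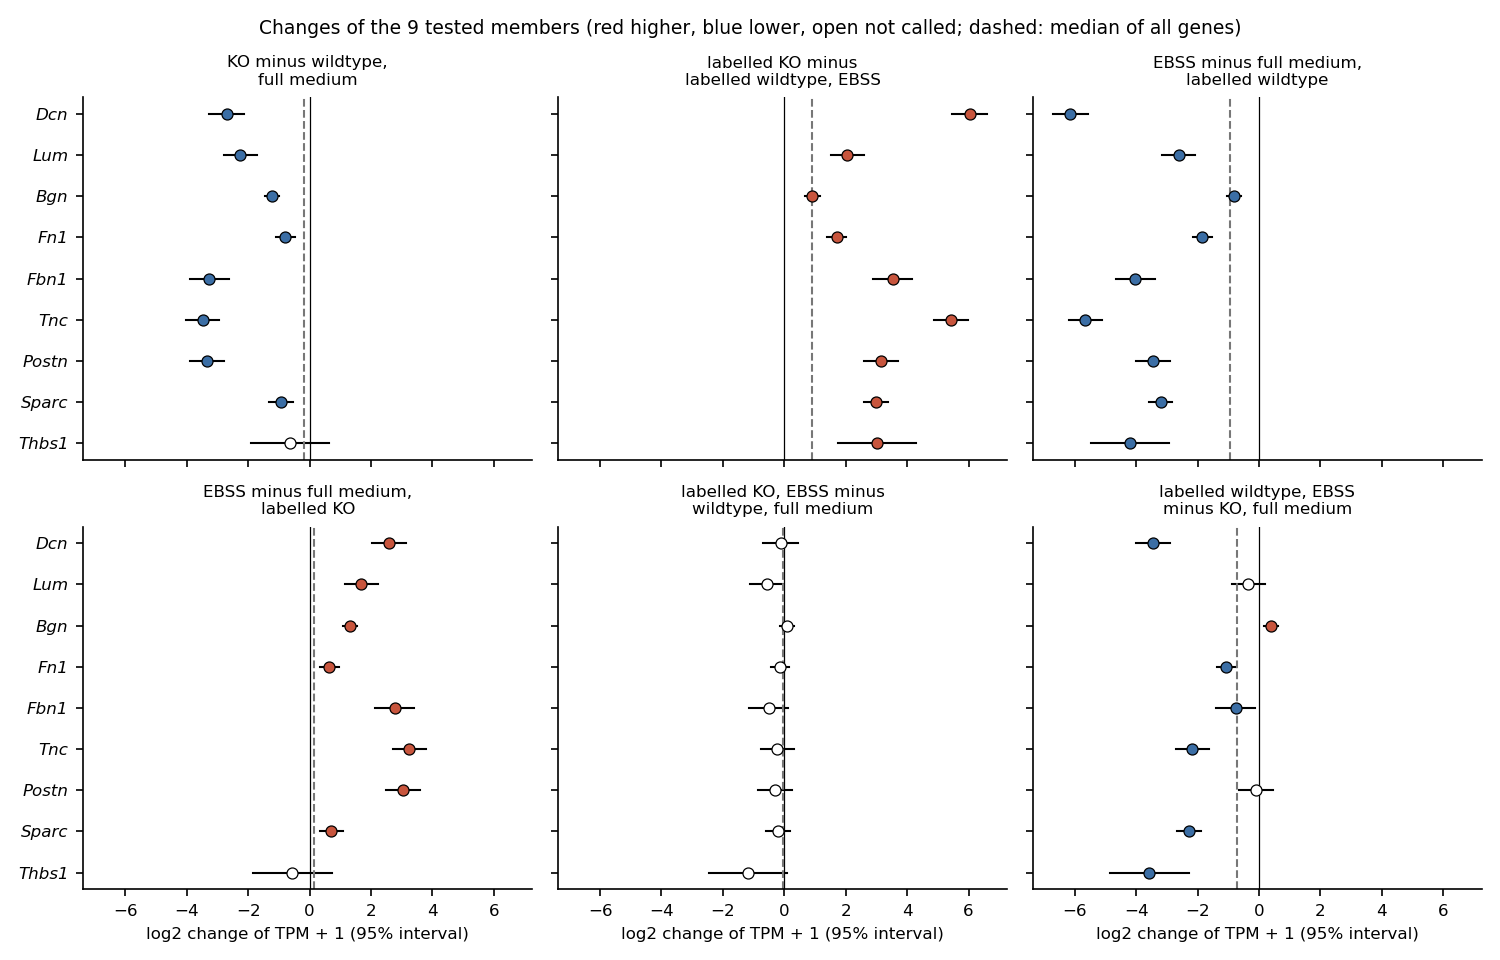
Log2 change of TPM + 1 for the 9 tested members in 6 comparisons, with 95% intervals from limma; red points were called higher, blue lower, and open points were not called, and the dashed line is the median of all tested genes. The 5 genes Dcn, Lum, Fbn1, Tnc and Postn lie farthest from the median in full medium (−2.26 to −3.48), labelled KO, EBSS lies near wildtype in full medium, and Bgn lies close to the median line in both comparisons of labelled wildtype, EBSS with a high group, where its direction turns with median-of-ratios scaling.

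The second comparison sets the genotype labels against each other in EBSS. All 9 tested members were higher in the libraries labelled KO, where 71.9% of all tested genes were also higher. With median-of-ratios scaling 8 of 9 were higher, against 34.8% of all genes higher and 29% lower. Decorin and tenascin-C were among those that differed most. The labelled KO libraries held 122, 158 and 157 TPM of Dcn and the labelled wildtype ones 1.97, 1.84 and 0.299 TPM, a change of 6.03 (SE 0.26, adjusted p = 1.3e-08). For Tnc the labelled KO values were 293, 632 and 622 TPM and the labelled wildtype ones 8.78, 11.2 and 11.1 TPM, a change of 5.43 (SE 0.25, adjusted p = 1.9e-08). No library of either gene crossed between the groups.

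Fbn1 was at 49.4, 117 and 118 TPM in labelled KO, EBSS and at 5.75, 6.31 and 8.42 TPM in labelled wildtype, EBSS (change 3.53). Postn was at 20.5, 35.0 and 35.2 TPM against 3.68, 2.67 and 1.34 TPM (change 3.15). Sparc was at 1059, 1829 and 1880 TPM against 198, 191 and 188 TPM (change 2.99). For these genes replicate 1 of labelled KO lay well under its 2 fellow libraries, and still above every labelled wildtype library. Thbs1 was at 46.2, 55.1 and 62.0 TPM in labelled wildtype, and its change was 3.01 (SE 0.58, adjusted p = 0.00052), or 3.95 without replicate 1 of labelled KO. Lum was at 1.57, 4.37 and 4.47 TPM in labelled KO, and in labelled wildtype at 0.0758 TPM in 1 library and listed at 0 in the others (change 2.04). Eln was at 0.384, 0.487 and 0.433 TPM in labelled KO and listed at 0, 0 and 0.0472 TPM in labelled wildtype.

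Fibronectin and biglycan differed least between labelled KO and labelled wildtype. Fn1 stood at 1563, 1822 and 1755 TPM in the former label and 496, 505 and 568 TPM in the latter, a change of 1.71 (SE 0.14, adjusted p = 6.5e-07), or 0.75 with median-of-ratios scaling (limma adjusted p = 0.00041). Bgn was at 1480, 1775 and 1828 TPM against 870.5, 862 and 956 TPM. Its change was 0.91 as deposited (SE 0.11, adjusted p = 1e-05), the same as the median of all genes, and −0.05 with median-of-ratios scaling (limma adjusted p = 0.73). Bgn was therefore the most abundant member in labelled wildtype, EBSS, with a mean of 896 ± 51.9 TPM (SD, n = 3) against 523 ± 39.3 TPM for Fn1 and 192 ± 5.13 TPM for Sparc. Those 3 genes made up 95.3% to 95.9% of the members' sum there.

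The next 2 comparisons set EBSS against full medium within each genotype label. They share their samples with the comparisons above, so they are not independent of them. In labelled wildtype, all 9 tested members were lower in EBSS than in full medium, as were 71.8% of all tested genes. With median-of-ratios scaling 8 of 9 were lower, against 35.7% of all genes lower and 30.3% higher. Lum, with values near 0 in EBSS, was at 0.478% of its fed level (change −2.62, SE 0.24, limma adjusted p = 1.6e-06). Dcn was at 0.875% of its fed level, Tnc at 1.82%, Thbs1 at 5.39%, Fbn1 at 5.46%, Postn at 7.02% and Sparc at 10.8%. Eln, which was below the filter, was at 3.42%. Fn1 was at 27.7% and Bgn at 56.4%. These percents are of TPM as deposited, and the changes are smaller with median-of-ratios scaling, at −0.85 in place of −1.85 for Fn1 and −2.21 in place of −3.21 for Sparc. The change was −6.15 for Dcn (SE 0.26, adjusted p = 9.6e-09), −4.20 for Thbs1 (SE 0.58, adjusted p = 3.9e-05) and −0.83 for Bgn (SE 0.11, adjusted p = 2.2e-05), and the last was 0.17 with median-of-ratios scaling (limma adjusted p = 0.19). Replicate 3 of labelled wildtype, EBSS listed 1122 tested genes at 0, and Dcn and Postn were lowest there. Without it the Dcn change was −5.76. Rbbp5 also differed between these groups as deposited, at −0.98 (limma adjusted p = 3.3e-05), and was at −0.03 with median-of-ratios scaling (limma adjusted p = 0.82). As deposited, medium and Rbbp5 thus cannot be told apart here.

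In labelled KO the direction was opposite. There 8 of 9 tested members were higher in EBSS than in full medium, as were 33.3% of all tested genes, and 8 of 9 with median-of-ratios scaling, against 26% of all. Tnc was higher by 3.26 (SE 0.25, adjusted p = 1.4e-06), Postn by 3.04, Fbn1 by 2.77, Dcn by 2.58, Lum by 1.69 and Bgn by 1.31. Sparc was higher by 0.71 (SE 0.17, adjusted p = 0.0052) and Fn1 by 0.64 (SE 0.14, adjusted p = 0.0024). Thbs1 overlapped between the groups, at −0.56 (SE 0.58, adjusted p = 0.44), and without replicate 1 of labelled KO, EBSS its value was 0.38 (limma adjusted p = 0.1). Eln was the reverse of the others, lower in each EBSS library than in each fed KO library, at 0.384 to 0.487 TPM against 0.654 to 0.874 TPM. Rbbp5 itself was higher in labelled KO, EBSS than in KO, full medium, by 1.54 (SE 0.13, limma adjusted p = 3.5e-06). With median-of-ratios scaling it was higher by 1.39 (limma adjusted p = 3.7e-06). These groups thus differed in Rbbp5 as well as in medium, and the 2 cannot be told apart here.

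The difference between the 2 genotype effects was itself tested as an interaction, the effect in EBSS minus that in full medium. It passed for all 9 tested members, in the same direction as 64.2% of all tested genes. Values ran from 2.14 for Bgn (SE 0.15, adjusted p = 2.3e-07) to 8.91 for Tnc (SE 0.35, adjusted p = 4.5e-09). With median-of-ratios scaling all 9 again passed, against 34.1% of all genes, from 0.99 for Bgn to 7.88 for Dcn. These directions rest on the EBSS labels that Rbbp5 went against.

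Groups that differ in both labels were also compared, because of Rbbp5. Between labelled KO, EBSS and wildtype, full medium, 0 of the 9 members passed in limma, against 0.134% of all tested genes. At an unadjusted p under 0.05, 1 of the 9 differed (Lum, at −0.57), against 10.9% of all tested genes. With limma's library weights 1 passed as higher (Bgn, at 0.23) and 1 as lower (Lum, at −0.24), against 42.1% of all tested genes in either direction, so the members' share was below the background. Intervals for the difference were −0.15 to 0.32 for Bgn, −0.45 to 0.16 for Fn1, −0.59 to 0.17 for Sparc and −0.68 to 0.45 for Dcn (95%, log2), which bounds the change in those genes. The interval for Thbs1 was wide, −2.46 to 0.09. Without replicate 1 of labelled KO, EBSS the value was −0.25 for Thbs1 in place of −1.19, −0.21 for Lum in place of −0.57 and −0.09 for Fbn1 in place of −0.50. By overlap alone, 5 of the 9 were lower in every labelled KO, EBSS library (Lum, Fn1, Fbn1, Postn and Thbs1), as were 24.7% of all tested genes.

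Replicate 1 of labelled KO, EBSS was lower than replicates 2 and 3 for all 9 tested members, as it was for 36.6% of all tested genes. Thbs1 was at 0.143 of the mean of its fellow libraries, Lum at 0.355, Fbn1 at 0.42 and Tnc at 0.467. Those 4 were at least 1 log2 unit below that mean, as were 1.99% of all tested genes. Dcn, at 0.774, Bgn, at 0.821, and Fn1, at 0.874, moved little. Over all tested genes the median difference was 0.08 on the log2 scale, so the library as a whole was not lower. The library was singled out after its values were seen.

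**Figure D3:**
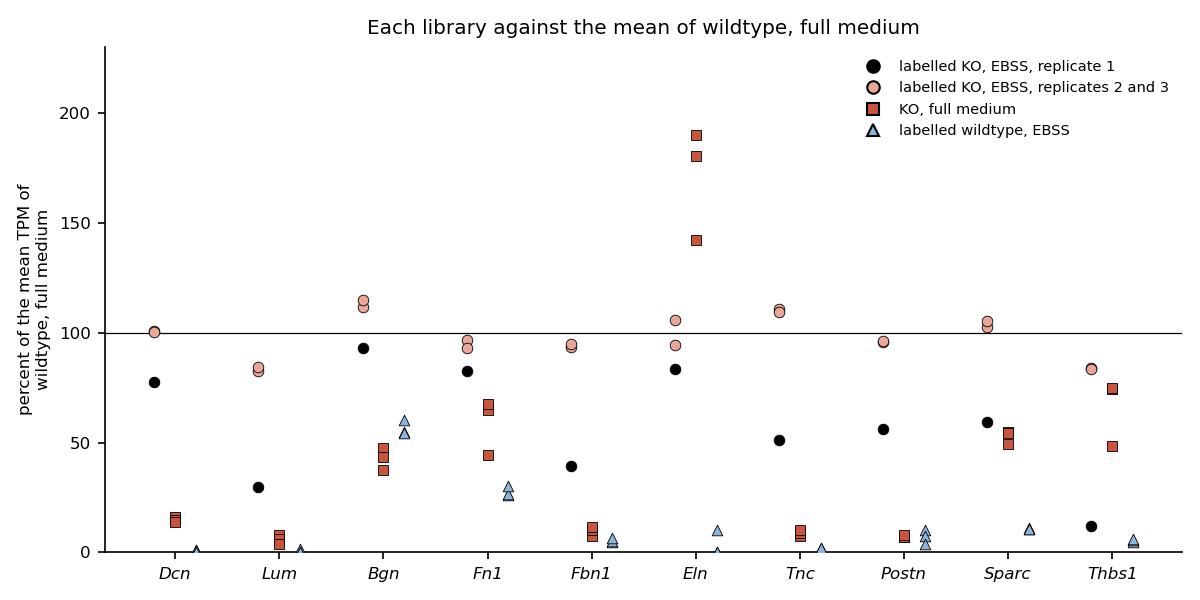
Each library's TPM as a percent of the mean of the 3 wildtype libraries in full medium (line at 100), for labelled KO, EBSS (circles, replicate 1 in black), KO, full medium (squares) and labelled wildtype, EBSS (triangles). Replicate 1 stands below its fellows for every gene, most for Thbs1 (12.0% against 84.0% and 83.6%), and in KO, full medium only Eln, of the 10, is above the line, at 142% to 190%.

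Labelled wildtype, EBSS was set against KO in full medium, the 2 groups in which Rbbp5 was lowest as deposited. With median-of-ratios scaling Rbbp5 in labelled wildtype, EBSS was near fed wildtype (−0.03, limma adjusted p = 0.82). Here 6 of 9 were lower and 1, Bgn, was higher, against 63.5% of all tested genes lower and 11.6% higher. With median-of-ratios scaling 4 were lower (Dcn, Tnc, Sparc and Thbs1) and Bgn higher, against 33.7% and 29.5% of all genes. Thbs1 was at −3.57 (SE 0.58, adjusted p = 0.00016), and Dcn was at −3.45 (SE 0.26, adjusted p = 3.8e-07). Sparc was at −2.29 and Tnc at −2.17. Fn1, at −1.07 as deposited, was at −0.26 with median-of-ratios scaling (limma adjusted p = 0.1). Fbn1 was at −0.76 (SE 0.29, adjusted p = 0.033), a call that ended with median-of-ratios scaling and without single libraries (limma adjusted p up to 0.11 without 1 library), and its value was 0.04 with quantile normalization. Postn overlapped between these groups, at −0.11 (SE 0.25, adjusted p = 0.71). Postn and Lum were the 2 members that did not pass, and Lum was at −0.35 (SE 0.24, adjusted p = 0.21).

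The members were also compared with each other over the 12 libraries. Likeness was measured as the root mean square difference between log2(TPM + 1) profiles, each centred on its own mean, as a description with no test. The smallest differences between members were 0.42 for Fbn1 and Postn, 0.54 for Bgn and Fn1, 0.59 for Sparc and Fn1 and 0.59 for Dcn and Tnc. Dcn and Bgn, of the same protein family, were farthest apart (2.16). Spread over the 12 libraries was 2.52 log2 units for Dcn and 2.38 for Tnc, against 0.56 for Bgn and a median of 0.55 over all genes compared. A difference grows with these spreads. The 0.54 for Bgn and Fn1 is near the spread of Bgn itself and so shows little likeness. The 0.59 for Dcn and Tnc is small beside their spreads, and the 2.16 for Dcn and Bgn is near the spread of Dcn.

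Outside the set, the 2 genes nearest to Fn1 were Calu, an ER calcium-binding protein of the secretory pathway (0.08), and Smad1 (0.09). Bgn was nearest to Sorbs3 (0.11) and Adcy6 (0.12), and Sparc to the tubulin Tubb6 (0.16) and Man2a1, a Golgi mannosidase (0.17). Lum lay nearest to the chromatin protein Hmga2 (0.11) and Fhl1 (0.16), and Postn to the serotonin receptor Htr1b (0.17) and Wnt7b (0.25). For Fbn1 the nearest were Hgf (0.18) and Pros1 (0.21), and for Tnc they were Penk (0.30) and Ptx3 (0.40). Dcn was nearest to the interferon-induced protease Usp18 (0.52) and Ptx3 (0.59), and Thbs1 to Cdc42ep3 (0.41) and Ccn2, a serum-responsive matricellular gene (0.47). This measure grows with a gene's own spread, so its values are not comparable between members. The added 1 also flattens falls to values near 0. Lum went from 5.29 TPM in fed wildtype to 0.0253 TPM in labelled wildtype, EBSS, and Hmga2 from 443 to 71.9 TPM. Nearness on this scale is therefore not likeness in fold change where a gene falls to low values.

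Other matrix genes were followed in 7 lists that hold none of the 10 members, with 121 genes in the table and 96 tested. In full medium 72 of the 96 were lower and 9 higher in KO, against 35.8% and 20.1% of all tested genes. Of 17 other elastic fibre and microfibril genes, 17 were lower (15 with median-of-ratios scaling), led by Ltbp2, which binds fibrillin microfibrils (1.15 ± 0.161 TPM in KO and 19.0 ± 0.391 TPM in wildtype; mean ± SD, n = 3 each). Of 13 large and cell-surface proteoglycans, 12 were lower and 0 higher, led by versican, Vcan (6.53 ± 1.32 and 37.4 ± 0.805 TPM). Of 6 other small leucine-rich proteoglycans, 4 were lower and 1 higher, led by podocan, Podn (0.512 ± 0.0294 and 24.5 ± 1.5 TPM). Of 17 other matricellular and adhesive genes, 10 were lower and 2 higher. Osteopontin, Spp1, went from 8275 ± 127 TPM in wildtype to 295 ± 30.3 TPM in KO, a change of −4.81 (limma adjusted p = 6.7e-08), and Ecm1 was higher by 0.36.

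Among laminins and nidogens, which form basement membranes, 7 of 11 were lower and 3 higher in KO. Nid2 fell by 2.47, while the laminin beta chain Lamb3 went from 0.345 ± 0.0259 to 11.7 ± 2.45 TPM (3.23, limma adjusted p = 1.5e-06). Of 18 matrix receptors, 12 were lower and 2 higher, with the integrin chain Itgb3 at −2.92 and Itga3 at 0.77. Of 14 TGF-beta ligands, receptors, SMADs and related genes, 10 were lower and 1 higher, with Tgfb2 at −2.84 and Smad7, an inhibitory SMAD, at 0.77. The median change of the 96 genes was −1.08. With median-of-ratios scaling 62 were lower and 9 higher, against 27% and 26.7% of all tested genes. The numbers lower were then 10 for matrix receptors, 8 for the TGF-beta list, 9 for large and cell-surface proteoglycans and 6 for laminins and nidogens. Those for the other small leucine-rich proteoglycans and the other matricellular and adhesive genes stayed the same.

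In EBSS 76 of the 96 were higher and 4 lower in labelled KO, against 71.9% of all tested genes higher. With median-of-ratios scaling 54 were higher and 17 lower, against 34.8% and 29% of all. Of the 6 other small leucine-rich proteoglycans, 3 were higher and 1 lower as deposited, and 1 higher and 3 lower with that scaling. In each of the other lists more genes were higher than lower with it. Mgp, matrix Gla protein, had a mean of 6339 ± 2492 TPM in the labelled KO libraries and 467 ± 114 TPM in the labelled wildtype ones, and Vcan at 34.0 ± 2.38 and 3.00 ± 0.517 TPM. Asporin, Aspn, ran the other way, at 7.04 ± 2.48 and 18.5 ± 2.92 TPM (−1.32, limma adjusted p = 0.00013). Of the 96, 82 were lower and 4 higher in EBSS within labelled wildtype (56 and 14 with that scaling), against 71.8% of all tested genes lower (35.7% with that scaling). Within labelled KO 66 were higher and 11 lower (61 and 12), against 33.3% of all higher (26% with that scaling). Between labelled KO, EBSS and wildtype, full medium, 0 of the 96 passed in limma, and 12 of them had an unadjusted p under 0.05, a share near the 10.9% of all tested genes.

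**Figure D4:**
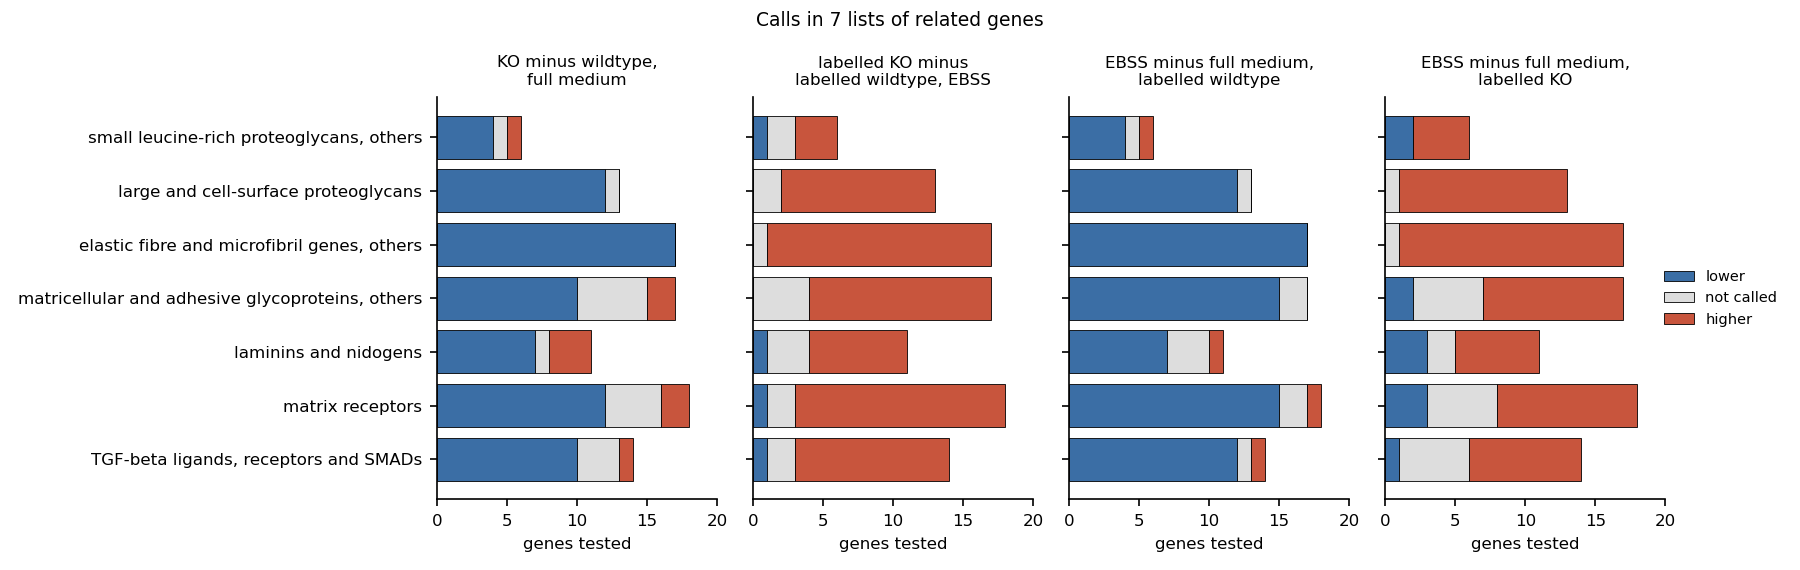
Number of tested genes called lower (blue), not called (grey) and higher (red) in 7 lists of related matrix genes, for 4 comparisons, from limma on the deposited values. All 17 other elastic fibre and microfibril genes were lower in KO in full medium. In every list most calls are lower in the first panel and higher in the second. With median-of-ratios scaling the second panel holds 54 higher and 17 lower. The other small leucine-rich proteoglycans then hold 1 higher and 3 lower there.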

How the data were processed

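RNA was measured in 12 MEF libraries, 3 in each of 4 groups set by the labels. The authors deposited 1 table of TPM values for 25117 gene symbols, estimated with Salmon on mm10 per the submitters' processing notes, with versions not given in the sources used here. TPM keeps no read depth, so no count test was run and no counting interval can be given. Columns were matched to samples by title, and 0 per-sample columns were left unused. Values were tested as log2(TPM + 1) with limma 3.58.1 in R 4.3.3, in 1 model of 4 groups, for the 12653 symbols that reached 1 TPM in 3 or more libraries. P-values were adjusted by Benjamini-Hochberg over those symbols within each of 7 comparisons, and calls were made at 0.05. The script was tested on simulated data. Pseudocount, filter, scaling, libraries fitted, library weights, a replicate block and each library left out were varied. The members and gene lists were chosen with earlier results of these data known. Named are Rbbp5 and the members, in each related list the called genes that rose and fell most with a mean of at least 5 TPM in the higher group, and for each member the 2 tested genes nearest in profile. Not every gene that this rule names is printed. The 6 marker lists are given by their sums, with values of some single fibroblast and macrophage markers. Gene positions come from GENCODE vM21 (GRCm38, the same assembly as mm10), and promoter sequences from RefSeq on GRCm38.p6. Plots were drawn with matplotlib 3.10.9 in Python 3.11.15.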

Additional observations from a re-analysis of the deposited data

Results flagged for a closer look

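For all 9 tested members the effect of the KO label differed between media, by limma's interaction test (effect in EBSS minus effect in full medium, log2 scale, all 9 with adjusted p at or under 0.0017). The difference was 8.73 for Dcn, 4.31 for Lum and 2.14 for Bgn. It was 2.49 for Fn1 and 6.79 for Fbn1. Among the matricellular genes it was 8.91 for Tnc, 6.49 for Postn, 3.91 for Sparc and 3.64 for Thbs1. In the same direction 64.2% of all tested genes passed. With median-of-ratios scaling 34.1% did, and the members ran from 0.99 for Bgn to 7.88 for Dcn. The median over all tested genes was 1.06 as deposited, and the values rest on the EBSS labels that Rbbp5 does not bear out.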

How the results depend on the processing

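Of 1370 values recomputed for single members over 22 settings and 7 comparisons, 1339 kept their direction and side of the threshold, 8 lost a call, 8 gained one and 15 turned direction. Many of these values could not turn. The filters, the fit of 6 libraries and the replicate block leave a change itself the same. So does leaving out a library from a group outside the comparison. Only the adjusted p could move there, so the tally overstates how stable the directions were. With median-of-ratios scaling Bgn turned to −0.047 between the EBSS labels and to 0.17 for EBSS against full medium in labelled wildtype. Thbs1 for EBSS against full medium in labelled KO turned to 0.16 with library weights and to 0.38 without replicate 1 of labelled KO, EBSS, and ran from −1.02 to 0.38 over the libraries left out. For labelled KO, EBSS against wildtype, full medium, 3 genes that were not called turned without that library (Dcn 0.0066, Tnc 0.14, Sparc 0.058), and 2 with library weights (Tnc 0.10, Sparc 0.096). Over the libraries left out these ran from −0.18 to 0.0066 for Dcn, −0.41 to 0.14 for Tnc and −0.36 to 0.058 for Sparc. In that comparison library weights called 1 member higher and 1 lower, where the reported counts are 0. All genes called there numbered 17, against 32 with no filter, 56 with quantile normalization, 249 with 6 libraries, 5331 with library weights and 8 to 219 when 1 library was left out, the highest without labelled wildtype, EBSS replicate 3. For labelled wildtype, EBSS against KO, full medium, Fbn1 turned to 0.035 with quantile normalization. Postn turned to 0.49 with median-of-ratios scaling, 0.58 with quantile normalization, 0.17 with ribosomal protein genes left out, 0.19 with library weights and 0.17 without labelled wildtype, EBSS replicate 3 (−0.33 to 0.17 over the libraries left out). Lum passed there with a pseudocount of 0.1 (−1.73), with 6 libraries (limma adjusted p = 0.029) and without labelled KO, EBSS replicate 1 (limma adjusted p = 0.011). The cause was not tested in any of these.

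Deviations of same-numbered libraries correlated at −0.073 to 0.079 over 18 pairs, and those of differently numbered libraries at −0.098 to 0.088 over 36 pairs. The values show no pairing by number, which does not exclude that same-numbered libraries share an origin. The replicate block changed no count of members in the 7 comparisons, and called 7 genes in place of 17 between labelled KO, EBSS and wildtype, full medium. Depth is unknown, and Lum and Eln, at or under about 5 TPM, are the members that low expression limits most.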
